A study of Mus musculus with 12 samples.

Results

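The nuclear-encoded subunits of the mitochondrial oxidative phosphorylation machinery were followed in mouse bone marrow derived macrophages (BMDMs), macrophages grown from marrow in culture. Members were all genes whose symbol begins with Ndufa, Ndufb, Ndufc, Ndufs, Ndufv, Uqcr, Cox4 to Cox8 or Atp5, together with Sdha to Sdhd. They also had to reach 1 TPM (a length-scaled share of the total over the genes listed) in at least 3 of the 12 libraries. Assembly factors (Ndufaf, Sdhaf) were left out. Of 89 matching symbols, 80 passed this filter, among 11283 genes that passed it of 25230 in the table. They comprised 37 genes of complex I, 4 of complex II, 8 of complex III, 14 of complex IV and 17 of complex V.

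The 12 libraries formed 4 groups of 3, namely wild-type BMDMs given PBS, wild-type BMDMs given Candida albicans, Piezo1 knockout BMDMs given PBS, and Piezo1 knockout BMDMs given C. albicans. Piezo1 is a mechanically gated cation channel, and C. albicans is a yeast that can grow as hyphae. All marrow cells were grown for 8 days with recombinant M-CSF at 50 ng/ml, and polyadenylated RNA was sequenced. How the Piezo1 allele was made, the dose and duration of C. albicans, and whether the replicates of a group came from separate mice are facts not given in the sources used here, so p-values measure the spread between these libraries, which may be technical. The sample titles of the knockout PBS group name DMSO where its treatment label says PBS.

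Oxidative phosphorylation passes electrons from NADH (complex I) and succinate (complex II) through ubiquinone, complex III and cytochrome c to oxygen at complex IV, and complex V uses the resulting proton gradient to make ATP. Complexes I, III, IV and V combine nuclear-encoded subunits with a few made from mitochondrial DNA, while complex II is wholly nuclear-encoded. In macrophages the chain also yields reactive oxygen species, and inflammatory activation is known to shift ATP production towards glycolysis. The mitochondrially encoded subunits were not analysed here.

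Promoter sequence is shown for 4 members whose response to C. albicans differed between genotypes, the pair with a smaller response in the knockout first and the pair with the opposite sign after it. Each line gives the 150 bases before the gene start, 5′ to 3′ on the gene's own strand (all 4 on the minus strand), from RefSeq on GRCm38.p6. Capitals mark matches to GCGCANGCG, the type of site that the transcription factor NRF1 is known to bind. Atp5md lies at chr19:47090648-47090797, Ndufb4 at chr16:37654369-37654518, Sdha at chr13:74350241-74350390 and Ndufv1 at chr19:4012756-4012905.
Atp5md: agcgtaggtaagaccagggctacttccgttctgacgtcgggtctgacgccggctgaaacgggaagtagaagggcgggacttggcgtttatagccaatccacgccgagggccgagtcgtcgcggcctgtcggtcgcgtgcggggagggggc
Ndufb4: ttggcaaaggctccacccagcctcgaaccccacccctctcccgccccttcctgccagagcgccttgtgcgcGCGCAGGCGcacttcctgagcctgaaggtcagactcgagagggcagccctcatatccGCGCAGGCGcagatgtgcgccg
Sdha: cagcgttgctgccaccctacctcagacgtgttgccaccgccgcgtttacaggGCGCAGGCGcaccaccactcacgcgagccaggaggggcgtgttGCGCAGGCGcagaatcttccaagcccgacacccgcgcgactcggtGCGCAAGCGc
Ndufv1: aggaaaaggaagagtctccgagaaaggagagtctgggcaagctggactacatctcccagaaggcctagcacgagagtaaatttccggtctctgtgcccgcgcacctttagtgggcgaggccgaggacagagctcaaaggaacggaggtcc

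Ndufb4 and Sdha, whose differences between genotypes have opposite signs, both carried the motif, beginning 79 and 22 bases before the start in Ndufb4 and 98, 55 and 10 bases before it in Sdha. Atp5md and Ndufv1 had no match in these stretches. Atp5l, Atp5j2 and Atp5d, whose responses also differed between genotypes, had no match in the same 150 bases either, and their sequence is not shown. Windows of 300 bases around the start (250 before, 50 after; the first window listed per gene) were on hand for 65 of the 80 members, and both strands were searched. GCGCANGCG occurred in 18 of the 65 (27.7%), against 6.47% of 27025 windows of all genes and 15.0% of 8977 windows of tested genes. Atp5l was among the 18, with its match outside the 150 bases described above. CCGGAAG, the core bound by ETS factors such as GABP, occurred in 24.6% of member windows, against 9.12% of all and 20.2% of tested genes. AAGATGGC, the YY1 motif, occurred in 13.8%, against 2.88% and 5.29%, with 7 of its 9 members in complex I and the other 2 in complex V. No motif holds the letters of another, and a match describes the letters only.

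Reads per library, recovered from the TPM values, ran from 16400119 to 25741091. Piezo1 itself stood at 130.4 to 147 TPM in the 6 wild-type libraries and 62.4 to 67.5 TPM in the 6 knockout libraries, so transcripts of the gene remained in all 6 libraries labelled knockout. In the wild-type C. albicans group, replicate 1 differed from replicates 2 and 3 (chi-square per degree of freedom over genes 17.1 and 16.0, against 1.49 to 4.77 for the other replicate pairs). Macrophage markers (8 of 8 tested, among them Csf1r, Adgre1 and Cd68) summed to 6830 to 7077 TPM over the 12 libraries; 1 was higher and 5 lower in the wild-type response, 1 and 4 in the knockout effect with PBS, and 4 and 4 in that with C. albicans. Lists for other cells were low but moved with the groups. In wild-type PBS, wild-type C. albicans, knockout PBS and knockout C. albicans, neutrophil genes summed to 2.21 to 2.75, 6.56 to 8.14, 4.19 to 5.63 and 3.06 to 5.26 TPM, T cell genes, nearly all Cd4, to 16.2 to 17.5, 12.6 to 16.1, 7.28 to 8.78 and 10.3 to 11.97 TPM, and B cell genes to 2.09 to 2.68, 0.159 to 0.471, 0.900 to 1.16 and 0.558 to 1.40 TPM. Their part in the results was not tested. Ly6g, S100a9 and Cd3e were listed at 0, but so were Ndufs5, Sco2 and Pet117, which most cells use, so a listed 0 need not mean low expression. In bulk RNA, fewer cells of a type and less RNA per cell cannot be told apart.

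Levels were compared between genes on the length-scaled TPM scale. The 80 members summed to 16432 ± 170.4 TPM (SD, n = 3) in wild-type PBS libraries, 1.64% of all TPM, to 17251 ± 393 in wild-type C. albicans, 17707 ± 214 in the knockout with PBS and 18360 ± 202 (1.84%) in the knockout with C. albicans. Complex IV had the highest mean sum in each group, with Cox4i1, a regulatory subunit, at a mean of 784 TPM over the 12 libraries. Complex V followed with Atp5b, the catalytic beta subunit, at 599. In wild-type C. albicans the sums of complexes IV and V were nearly equal (5298 ± 130 and 5293 ± 147), and complex V was higher in replicate 3. Ndufa3 led complex I at 327 TPM, Uqcrh, the hinge protein, led complex III at 313, and Sdhb, the iron-sulfur subunit, led complex II at 262. Sdha was the lowest of complex II at 179 (in wild-type PBS Sdhc was lower, at 187 against 196), Uqcrq of complex III at 94.1, and Atp5j of complex V at 106. Among paralogs the widely expressed form was the abundant form: Cox6a1 averaged 655 TPM against 14.2 for the muscle form Cox6a2, and Cox7a2 245 against 8.82 for the muscle form Cox7a1, which rested on as few as 18 reads in a library.

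The other 9 matching symbols missed the filter. Cox8b reached 1.09 TPM and Ndufa11b 1.15 TPM in a single library each, Cox4i2, the hypoxia-linked partner of Cox4i1, stayed at or below 0.695 TPM, Cox6b2 at or below 0.656 and Ndufa4l2 at or below 0.129. Ndufs5, Ndufb11b, Cox8c and Cox7b2 were listed at 0 in all 12 libraries. Ndufs5 is a standard complex I subunit, and its near-identical copy Ndufs5-ps averaged 18.4 TPM, so reads of the pair cannot be assigned with certainty. The same holds for Ndufb4 (215 TPM) and Ndufb4c (85.3 TPM).

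**Figure D1:**
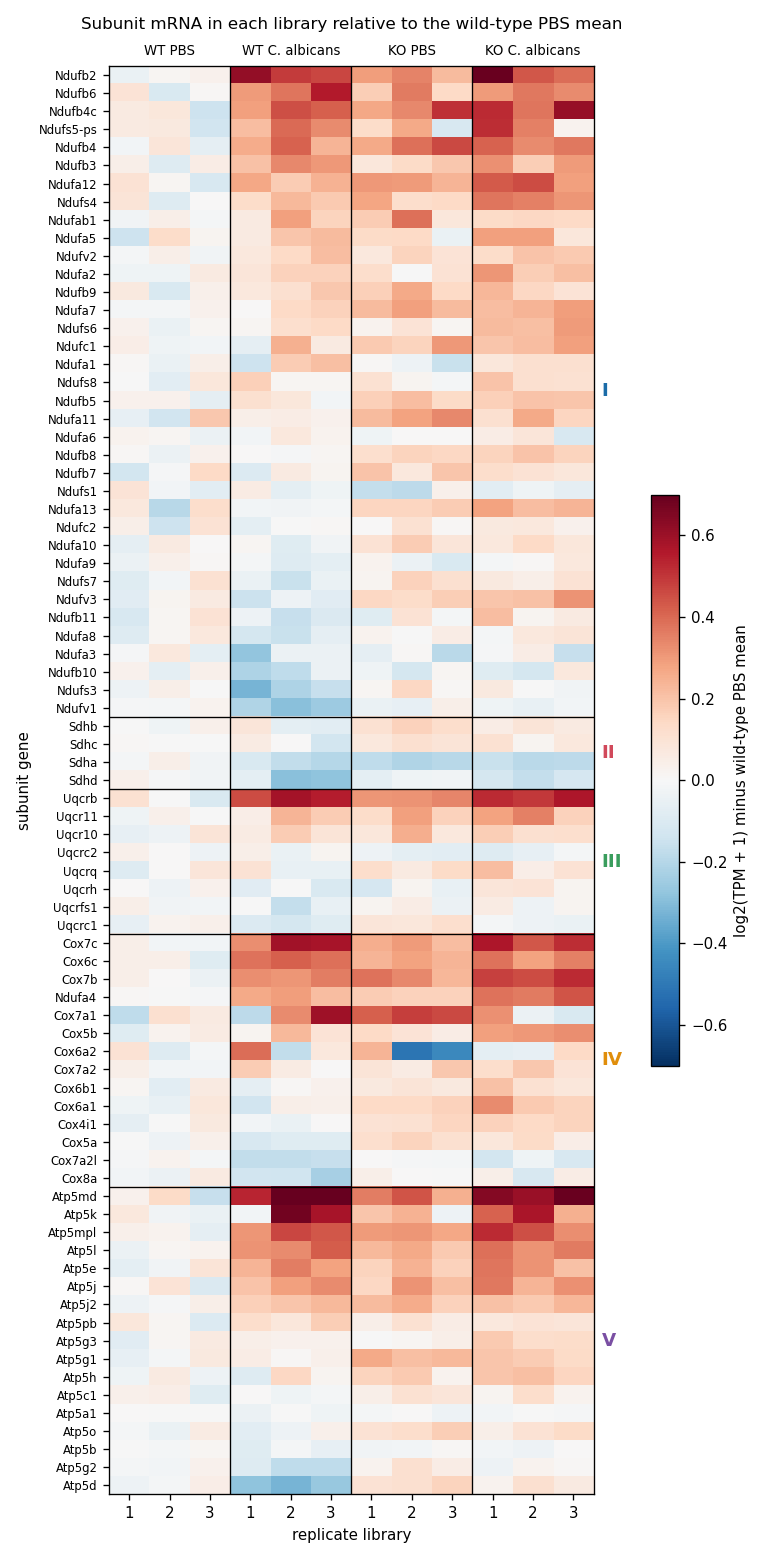
Heat map of log2(TPM + 1) for 79 of the 80 subunit genes (rows, grouped by complex I to V and sorted by the wild-type response) in the 12 libraries (columns, replicates 1 to 3 of each group), each as the difference from the mean of the 3 wild-type PBS libraries. Small subunits such as Atp5md, Uqcrb, Cox7c and Ndufb2 are red in wild-type C. albicans and in both knockout groups, while Ndufv1, Ndufs3 and Atp5d are bluest in the wild-type C. albicans libraries and close to white in the knockout libraries or, for Atp5d, faintly red.

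With C. albicans, wild-type macrophages changed subunit mRNAs in both directions. Atp5md, Uqcrb, Ndufb2 and Cox7c, small accessory subunits of complexes V, III, I and IV, rose most, and Atp5d, Ndufv1, Ndufs3 and Sdhd, of complexes V, I and II, fell most. Of the 80 members 24 were higher and 11 lower with C. albicans (limma, Benjamini-Hochberg adjusted p under 0.05 over 11283 genes), a share of 30.0% and 13.8%. Over all tested genes 16.1% were higher and 28.3% lower. Of 1073 other short genes of like abundance (up to 1879 bases and at or above the level that 90% of members reach) 24.8% were higher and 30.2% lower. Of 713 other genes no longer than the median member (807 bases) 19.1% were higher and 11.5% lower. Of 81 cytosolic ribosomal protein genes 48.1% were higher and 13.6% lower, so few falls were not particular to the members. The median log2 fold change was 0.032 for the members and -0.070 for all tested genes. It was 0.040 for the 713 genes and 0.094 for the ribosomal protein genes. The counts by complex were 10 higher and 3 lower of 37 in complex I, 0 and 2 of 4 in complex II, 2 and 1 of 8 in complex III, 4 and 3 of 14 in complex IV, and 8 and 2 of 17 in complex V. With DESeq-type median-ratio factors in place of the TPM scale the split was 36 higher and 6 lower (2559 and 2091 over all genes).

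In complex I, 1 of the 7 catalytic core genes rose and 3 fell in wild type (median -0.082). Of the 30 accessory genes 9 rose and 0 fell (median 0.081). These 9 include Ndufs5-ps, Ndufb4 and Ndufb4c, whose reads cannot be assigned with certainty, and the call of Ndufs5-ps was lost in 10 of 23 alternatives. The difference between the 2 classes was not tested. Ndufb2, an accessory subunit of the membrane arm, stood at 28.4, 29.6 and 30.0 TPM in wild-type PBS libraries, 45.5, 41.5 and 40.9 in wild-type C. albicans, 36.2, 37.5 and 34.4 in the knockout with PBS and 48.0, 40.0 and 38.7 in the knockout with C. albicans. Every wild-type C. albicans library lay above every wild-type PBS library, with a log2 difference of 0.52 ± 0.073 (± SE; adjusted p = 9.72e-05, limma). Ndufb6, another membrane-arm subunit, went from 103, 89.5 and 96.8 TPM to 119, 125 and 142 in wild type, without overlap (0.41, adjusted p = 6.15e-04, limma).

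Ndufv1, which carries the flavin that takes electrons from NADH, did the opposite. It stood at 73.7, 73.3 and 75.5 TPM in wild-type PBS, 64.1, 60.5 and 62.1 in wild-type C. albicans, 71.8, 71.1 and 76.3 in the knockout with PBS and 72.5, 71.6 and 73.3 in the knockout with C. albicans. The 3 wild-type C. albicans libraries were the lowest of the 12 and overlapped none of the others (wild-type response -0.25 ± 0.038, adjusted p = 2.09e-04, limma). Ndufs3, a core subunit near the quinone site, fell in wild type from 161, 169.5 and 164 to 132, 142 and 147 TPM (-0.23, adjusted p = 0.00203, limma). Ndufv2, the other core subunit beside Ndufv1, rose by 0.14, a call lost without replicate 3 of either wild-type group, with only the groups compared, and with the length and GC trend removed (0.035, adjusted p = 0.548). Ndufs1, the largest core subunit, stood at 38.6, 35.5 and 34.2 TPM and then 37.5, 34.4 and 35.4, overlapping groups (-0.013, adjusted p = 0.887, limma).

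Complex II had no rising gene in wild type. Sdha, the flavoprotein that oxidises succinate, stood at 194, 201 and 192 TPM in wild-type PBS and 182, 174 and 170.2 in wild-type C. albicans, without overlap (-0.16 ± 0.033, adjusted p = 0.00167, limma). The membrane anchor Sdhd fell from 223, 216 and 214 to 207, 177 and 179 TPM (-0.21, adjusted p = 0.00428, limma). Sdhb gave -0.019 (adjusted p = 0.725, limma), with overlapping groups. The Sdha fall missed the threshold in limma-voom on recovered reads (adjusted p = 0.0587).

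In complex III the largest change was that of Uqcrb, a small subunit near the ubiquinone site. It stood at 184, 170.1 and 158 TPM in wild-type PBS, 234, 256 and 250.1 in wild-type C. albicans, 211, 212 and 217 in the knockout with PBS and 246, 241 and 253 in the knockout with C. albicans. The 3 wild-type PBS libraries were below all others, and the knockout PBS libraries lay between them and both C. albicans groups (wild-type response 0.53 ± 0.049, adjusted p = 3.38e-06, limma). The core protein Uqcrc1 went from 168, 178 and 179 to 164, 161 and 165 TPM (-0.10, adjusted p = 0.0204, limma), a call lost with median-ratio factors, in limma-voom, with only the groups compared, with length or length and GC removed, and without wild-type PBS replicate 2 or 3 or wild-type C. albicans replicate 2. Uqcr11, another small subunit, gave 0.15 (adjusted p = 0.0495, limma), and that call was lost without a filter, with upper-quartile factors, with the length trend removed, with the variance trend off, with only the groups compared, and without any wild-type PBS library, wild-type C. albicans replicate 2 or 3, knockout PBS replicate 1 or 3, or knockout C. albicans replicate 1. The Rieske iron-sulfur protein Uqcrfs1 gave -0.074 (adjusted p = 0.2, limma).

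Complex IV held opposite movements among small subunits of like size. Cox7c stood at 480.3, 461 and 461 TPM in wild-type PBS and 585, 704 and 697 in wild-type C. albicans (0.50 ± 0.060, adjusted p = 3.19e-05, limma), and the lowest of the latter was replicate 1. Cox6c went from 351, 352 and 322 to 445, 457 and 446 TPM (0.39, adjusted p = 4.39e-06, limma), and Cox7b from 113, 110.1 and 107 to 138, 136 and 141 (0.33). None of these groups overlapped. Cox8a, at 549.6, 540.5 and 582 and then 508, 505 and 474 TPM, fell (-0.17, adjusted p = 0.00873, limma), as did Cox7a2l, which links complexes III and IV in supercomplexes (-0.17, adjusted p = 4.83e-04). Both falls missed the threshold in limma-voom (adjusted p = 0.148 and 0.0522), and that of Cox8a also with median-ratio factors. Cox5a fell by 0.094 (adjusted p = 0.0242, limma), a call lost with median-ratio or upper-quartile factors, in limma-voom, with the variance trend off, with only the groups compared, and without replicate 3 of either wild-type group, and Cox4i1 gave -0.022 (adjusted p = 0.604).

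The largest rise of any member was in complex V. Atp5md, a small membrane subunit involved in dimers of ATP synthase, stood at 253, 272 and 221 TPM in wild-type PBS, 359.7, 413 and 408 in wild-type C. albicans, 318, 337 and 295 in the knockout with PBS and 387, 377 and 401 in the knockout with C. albicans. Wild-type PBS was the lowest group and did not overlap any other (wild-type response 0.66 ± 0.074, adjusted p = 1.57e-05, limma). Atp5mpl, also a small membrane subunit, rose by 0.40, and Atp5l, subunit g of the membrane part, went from 405, 421 and 423 to 517, 523 and 559 TPM (0.36, adjusted p = 6.81e-06, limma). Atp5k, the shortest member at 320 bases, stood at 141, 132 and 130.0 TPM and then 132, 215 and 201. Its groups overlapped because of wild-type C. albicans replicate 1 (0.41, adjusted p = 0.0366, limma), and the call was lost without a filter, with the length trend removed, with the variance trend off, with only the groups compared, without any of the 3 wild-type PBS libraries or without wild-type C. albicans replicate 2 or 3.

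In the catalytic F1 head of complex V, 1 of 5 genes rose (Atp5e, the epsilon subunit, 0.29) and 1 fell. Atp5d, the delta subunit of the central stalk, stood at 145, 147 and 154 TPM in wild-type PBS, 122, 119 and 124 in wild-type C. albicans, 159.6, 161 and 166 in the knockout with PBS and 152, 161 and 156 in the knockout with C. albicans. The wild-type C. albicans libraries were the lowest of the 12 (-0.29 ± 0.036, adjusted p = 3.57e-05, limma). The beta subunit Atp5b gave -0.052 and the gamma subunit Atp5c1 -0.014, neither called (adjusted p = 0.116 and 0.798). The 3 genes that encode the same mature c subunit of the rotor differed: Atp5g2, the most abundant, fell by 0.15 (adjusted p = 0.00351, limma), a call lost with median-ratio factors, in limma-voom and with length and GC removed (-0.038, adjusted p = 0.492), while Atp5g1 (0.030) and Atp5g3 (0.033) were not called.

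**Figure D2:**
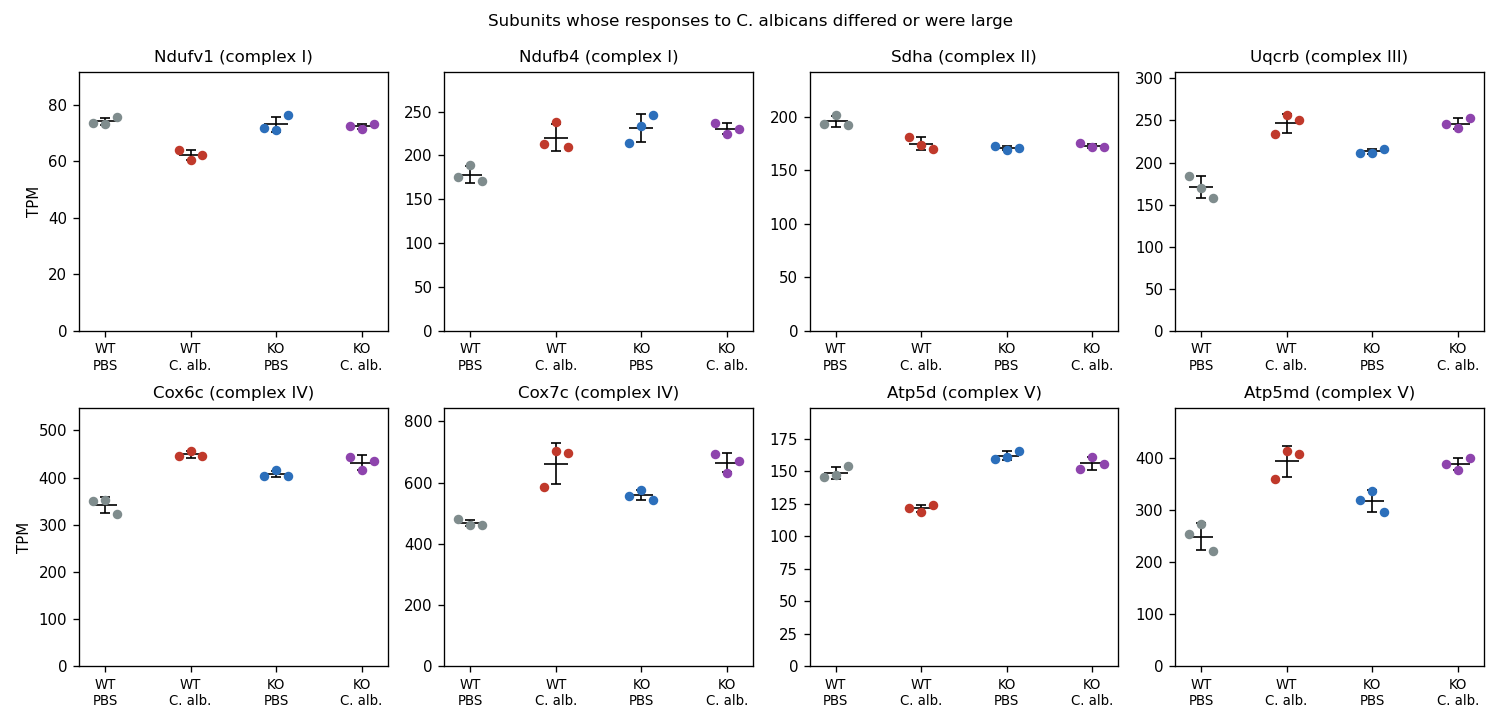
TPM (y axis, from 0) of 8 subunits in the 4 groups (x axis); coloured points are the 3 libraries of a group, and black bars give the mean and SD. Uqcrb, Cox6c, Cox7c and Atp5md are lowest in wild-type PBS, and Ndufv1 and Atp5d are lowest in wild-type C. albicans.

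In the knockout, C. albicans raised a few subunits of complexes I, III, IV and V and lowered Uqcrc1. The count was 8 members higher (10.0%) and 1 lower with C. albicans, against 3.94% higher and 3.14% lower of all tested genes (8.57% and 2.98% of other short abundant genes), and the medians were 0.029 and -0.038. With median-ratio factors 12 members were higher and 0 lower (605 and 177 over all genes). With the length trend removed 3 were higher and 1 lower (488 and 261 over all genes). With length and GC removed 2 were higher and 1 lower (561 and 307 over all genes). With either removal, members were called higher no more often than genes in general. Complex IV gave 4 of the 8: Cox7c (0.25, adjusted p = 0.0244, limma), Ndufa4 (0.23), Cox5b (0.21) and Cox7b (0.17). Ndufa4, long counted in complex I and since assigned to complex IV, stood at 258, 255 and 255 TPM with PBS and 297, 293 and 310.0 with C. albicans, without overlap (adjusted p = 3.60e-04, limma). Atp5md (0.29), Uqcrb (0.21), Ndufs6, a zinc-binding accessory subunit of complex I (0.20), and Atp5l (0.13) were the others, and Uqcrc1 fell by 0.12. None of the 9 calls held in every alternative. Ndufa4 was the only one called in each fit that left out a library, and it was lost with the length and GC trend removed (0.14, adjusted p = 0.0749). Leaving out a knockout PBS library brought the count of higher members to 3 (replicate 1), 5 (replicate 2) or 1 (replicate 3), and leaving out a knockout C. albicans library brought it to 2, 5 or 1 in the same order. The count of lower members was 0 without any knockout PBS library or without knockout C. albicans replicate 1 or 3. Dropping wild-type C. albicans replicate 1 gave 3, and over all genes 824 lower (354 with all libraries).

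Tested directly, the response differed between genotypes for 10 members. It was lower in the knockout for 7 (8.75%, against 6.33% of all tested genes) and higher for 3 (3.75%, against 7.52%), so these shares lay near or below the background (other short abundant genes gave 10.5% lower and 12.7% higher). With median-ratio factors 9 were lower and 3 higher (938 and 669 over all genes). Complex V held 4 of the 7. Values are given as the knockout response minus the wild-type response in log2: Atp5md -0.37 ± 0.104 (adjusted p = 0.0345, limma), Atp5mpl -0.26, Atp5l -0.23 and Atp5j2, subunit f of the membrane part, -0.21. Uqcrb gave -0.32 ± 0.070 (adjusted p = 0.00912), Cox6c -0.31 ± 0.054 (adjusted p = 0.00232) and Ndufb4 -0.31 ± 0.082 (adjusted p = 0.0275). The 3 with a higher value were Ndufv1 (0.24 ± 0.054, adjusted p = 0.0116), Atp5d (0.24 ± 0.050, adjusted p = 0.00815) and Sdha (0.18 ± 0.046, adjusted p = 0.0234).

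Atp5j2 shows the pattern of the 7 plainly. It stood at 378, 385 and 398 TPM in wild-type PBS, 435, 443 and 453 in wild-type C. albicans, 452, 465 and 433 in the knockout with PBS and 447, 439 and 454 in the knockout with C. albicans. The knockout PBS libraries already lay above wild-type PBS, and the C. albicans libraries of the genotypes overlapped. Ndufb4, at 175, 189 and 170.4, 213, 238 and 209.8, 214, 233 and 245 and 237, 224 and 229.9 TPM in the same order of groups, did likewise. Ndufv1 and Atp5d had the reverse form, with the wild-type C. albicans group alone set low. The interaction calls of Uqcrb, Cox6c, Atp5j2, Ndufv1 and Atp5d held in every alternative run. That of Atp5l was lost when the length and GC trend was removed (adjusted p = 0.325). Sdha's was lost without wild-type PBS replicate 2, wild-type C. albicans replicate 2 or 3, knockout PBS replicate 2 or knockout C. albicans replicate 1. Ndufb4's was lost if any of 7 libraries was dropped, which left wild-type PBS replicate 2, wild-type C. albicans replicates 1 and 3, knockout PBS replicate 1 and knockout C. albicans replicate 1 as those it did not need. For Atp5md and Atp5mpl the number was 9, and the libraries not needed were wild-type PBS replicate 2, wild-type C. albicans replicate 1 and knockout PBS replicate 3 for Atp5md, and replicate 1 of every group but the knockout with PBS for Atp5mpl. With the variance trend off, the calls of Sdha, Ndufb4, Atp5md and Atp5mpl were also lost. Those of Ndufb4, Atp5md and Atp5mpl were lost without a filter too, and those of Atp5md and Atp5mpl with upper-quartile factors. The count of members with a lower value was 4 without wild-type PBS replicate 3 or wild-type C. albicans replicate 2. It was also 4 without knockout PBS replicate 2 or knockout C. albicans replicate 2 or 3. Dropping wild-type C. albicans replicate 1 gave 11, and over all genes 1059 lower (714 with all libraries).

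**Figure D3:**
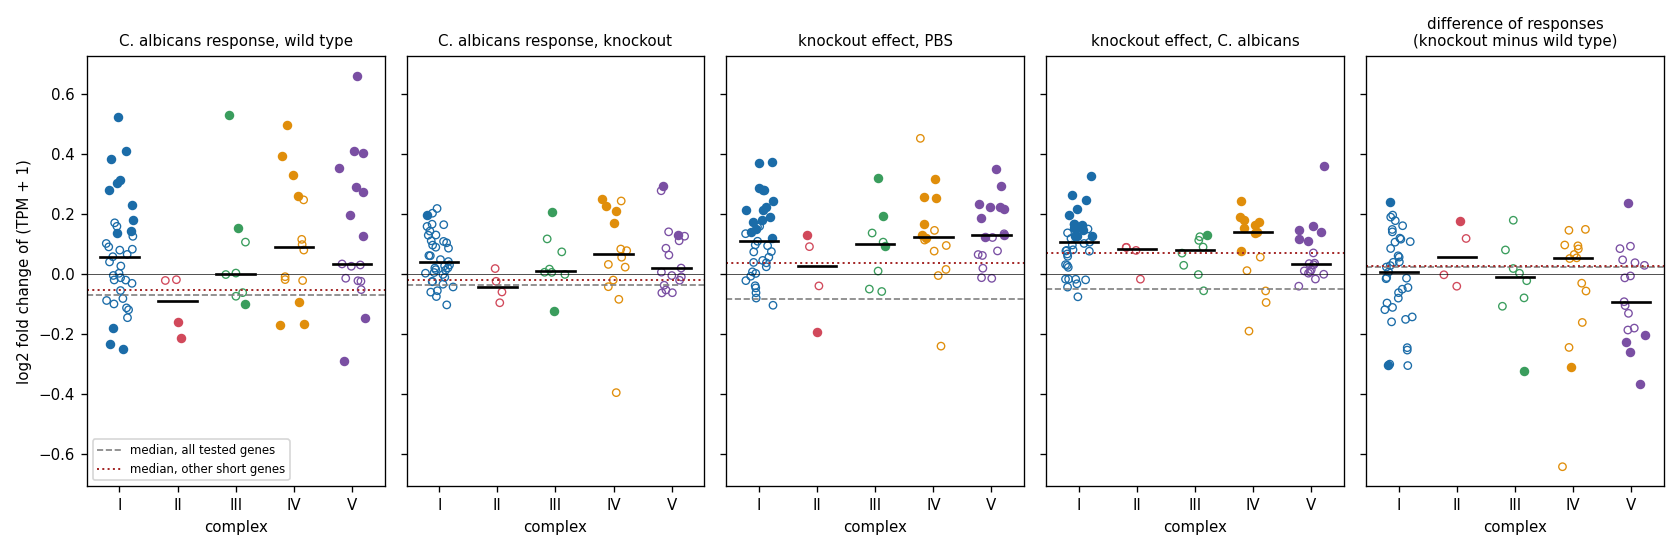
Log2 fold change of (TPM + 1) for each subunit gene (points; filled where the adjusted p was under 0.05) by complex (x axis) in the 5 comparisons, with the median of each complex as a black bar, the median of all tested genes dashed and that of other short genes dotted. In the knockout effect with PBS the medians of complexes I, III, IV and V lie between 0.099 and 0.131, above the dotted line, and in the difference of responses the median of complex V lies at -0.093.

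Without C. albicans, subunits of complexes I, III, IV and V were higher in knockout macrophages on the TPM scale, and in complex II Sdha was lower. In all, 34 members were higher (42.5%) and Sdha alone was lower, against 6.14% higher and 26.1% lower of all tested genes, most of which are longer, and 27.4% higher and 6.34% lower of other short abundant genes. The medians were 0.120, -0.083 and 0.063. With the length trend removed 21 members were higher and 1 lower (907 higher and 934 lower over all genes). The counts were 15 higher of 37 in complex I, 1 higher and 1 lower of 4 in complex II, 3 higher of 8 in complex III, 6 of 14 in complex IV and 9 of 17 in complex V. In complex I 0 of the 7 core subunits were called and 15 of the 30 accessory subunits were higher. With median-ratio factors 55 members were higher and 1 lower, and the median of all tested genes moved from -0.083 to 0.004 (1577 higher, 1608 lower). The count of lower members was 2 without knockout PBS replicate 1 or 3.

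For 8 of the largest of these knockout effects the wild-type response to C. albicans is set beside; both comparisons share the wild-type PBS libraries. Ndufb4 gave a knockout effect of 0.37 ± 0.058 (adjusted p = 4.43e-04, limma) and a wild-type response of 0.30. For Ndufb4c the values were 0.37 and 0.38, and for Atp5md 0.35 and 0.66. Uqcrb gave 0.32 and 0.53, Cox7b 0.32 and 0.33, Ndufb2 0.29 and 0.52, and Atp5mpl 0.29 and 0.40. Ndufa11 gave 0.28 and 0.040, the latter not called. Cox5a (0.13 and -0.094), Atp5d (0.12 and -0.29) and Uqcrc1 (0.092 and -0.10) were called in opposite directions. Of these knockout effects, that of Atp5d was lost without wild-type PBS replicate 1 or 2 or knockout PBS replicate 3, that of Cox5a with length or length and GC removed, and that of Uqcrc1 without any library except wild-type PBS replicate 3 and wild-type C. albicans replicate 1, with the length trend removed, with the variance trend off, with only the groups compared and with the replicate block. The call of Ndufa11 was lost without wild-type PBS replicate 2. Atp5g1 stood at 133, 137 and 145 TPM in wild-type PBS and 166, 159.5 and 161 in knockout PBS (0.23 ± 0.037, adjusted p = 4.68e-04, limma), and gave 0.030 in the wild-type response. Sdha was lower in the knockout, at 173, 169 and 171 TPM (-0.20 ± 0.033, adjusted p = 6.88e-04, limma), while Sdhb gave 0.13 (adjusted p = 0.0269), a call lost without wild-type PBS replicate 1 or 2 or knockout PBS replicate 2 or 3, with the variance trend off, and with length (0.096, adjusted p = 0.117) or length and GC removed (0.085, adjusted p = 0.126).

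With C. albicans in both genotypes, 31 members were higher in the knockout (38.8%) and 0 lower, against 12.4% higher and 27.5% lower of all tested genes. Other short abundant genes gave nearly the same share of higher genes, 37.8%, and 9.13% lower, and all other short genes gave 22.6% higher. At an unadjusted p under 0.05 the count of lower members was 0, and limma-voom and the median-ratio fit also gave 0. The medians were 0.089 for members, 0.081 for short abundant genes and -0.049 for all genes. With median-ratio factors 44 members were higher (2158 higher and 2463 lower over all genes). With the length trend removed 11 members were higher (1956 higher and 1774 lower over all genes). With length and GC removed 13 members were higher (1782 and 1770 over all genes). With either removal, the share of members called higher was near or below that over all genes. Complex I gave 15 higher of 37, complex II 0 of 4, complex III 1 of 8, complex IV 9 of 14 and complex V 6 of 17. In complex I, 4 of the 7 core subunits were higher beside 11 of the 30 accessory subunits. The count of higher members was 20 if knockout C. albicans replicate 1 or 3 was dropped. It was 32, with 1 lower, without wild-type C. albicans replicate 1 (1749 higher and 2950 lower over all genes).

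Atp5d led this comparison (0.36 ± 0.036, adjusted p = 8.02e-06, limma). Ndufv3, an accessory subunit beside Ndufv1, stood at 42.5, 46.2 and 44.8 TPM in wild-type C. albicans and 54.3, 54.8 and 59.1 in knockout C. albicans, without overlap (0.33, adjusted p = 2.31e-04). Ndufa13, an accessory subunit also known as GRIM-19, stood at 103, 103 and 104 and 127, 122 and 124 TPM (0.27, adjusted p = 0.00473 and 0.140 when the length and GC trend was removed). Ndufs3 (0.25) and Ndufv1 (0.22) were higher too. In complex IV, Cox6a1 stood at 560.3, 631 and 629 and 772, 698 and 684 TPM (0.24, adjusted p = 0.0032), Cox4i1 at 740.2, 725 and 751 and 838, 828 and 834 (0.17, adjusted p = 9.15e-04), and Cox5a at 286, 291 and 291 and 327, 339 and 319 (0.18, adjusted p = 4.77e-04). None of these groups overlapped, but the calls of Cox6a1 and Cox4i1 were lost when the length and GC trend was removed (adjusted p = 0.225 and 0.289). Uqcrh was the complex III member (0.13, adjusted p = 0.0213, limma). Its call was lost without wild-type C. albicans replicate 3 or knockout C. albicans replicate 1 or 2. It was also lost with the length trend removed (adjusted p = 0.148, limma) and with the variance trend off. The 4 accessory rises of the wild-type response named above, Ndufb2, Uqcrb, Cox7c and Atp5md, gave -0.018, -0.002, 0.011 and -0.017 here.

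These are short genes, and length went with the knockout effect across the whole table. Member lengths ran from 320 to 3164 bases with a median of 807, against a median of 3003 over all tested genes, and 48 of the 80 were no longer than 1045 bases, a length that 10% of tested genes do not exceed. Over 11283 genes the knockout effect with PBS and log2 length gave a Spearman rho of -0.462, as a description across genes, which are not independent and share libraries. Of the 2963 other genes no longer than 1879 bases (the length that 90% of members do not exceed), 440 were higher and 187 lower in the knockout with PBS (median 0.038). Of the 8240 longer genes, 219 were higher and 2760 lower (median -0.121). The median of the members thus stood 0.083 above other short genes in that comparison, 0.018 above them in the knockout effect with C. albicans, 0.086 above in the wild-type response, 0.050 above in the knockout response and 0.033 below in the difference of responses.

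This contrast depended on which short genes were taken. Against the 713 other genes no longer than the median member (807 bases), the median of the members stood 0.040 above in the knockout effect with PBS, 0.024 above in that with C. albicans, and 0.008 below in the wild-type response. Against the short abundant genes it stood 0.057, 0.008 and 0.050 above in these comparisons, and with the length trend removed the gap in the knockout effect with C. albicans was 0.010. The 81 cytosolic ribosomal protein genes, also short and abundant, gave 46 higher and 1 lower in the knockout with PBS (median 0.122), next to 34 and 1 and 0.120 for the members. The 78 mitochondrial ribosomal protein genes gave 13 higher and 1 lower (median 0.088). When a smooth trend in length was removed from each library, 21 members were higher and 1 lower in the knockout with PBS (907 and 934 over all genes). In the knockout with C. albicans 11 were higher and 0 lower (1956 and 1774 over all genes). With length and GC content both removed 22 and 13 members were higher, all of them among those called before (993 and 1782 higher over all genes). The share of members higher thus stayed above that over all genes with PBS, and was near or below it with C. albicans. With length and GC content removed the sign of 3 called members changed: Atp5g2 and Ndufs7 in the knockout effect with C. albicans (from 0.15 to -0.036 and from 0.15 to -0.003) and Atp5pb, a stalk subunit of complex V, in the wild-type response (from 0.13 to -0.027). The call of Ndufs7 was also lost without wild-type C. albicans replicate 2 or any knockout C. albicans library. It was lost too without a filter, with the length trend alone removed and with the variance trend off. That of Atp5pb was lost without wild-type PBS replicate 2 or 3 or wild-type C. albicans replicate 3. It was lost too with the variance trend off and with only the groups compared.

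**Figure D4:**
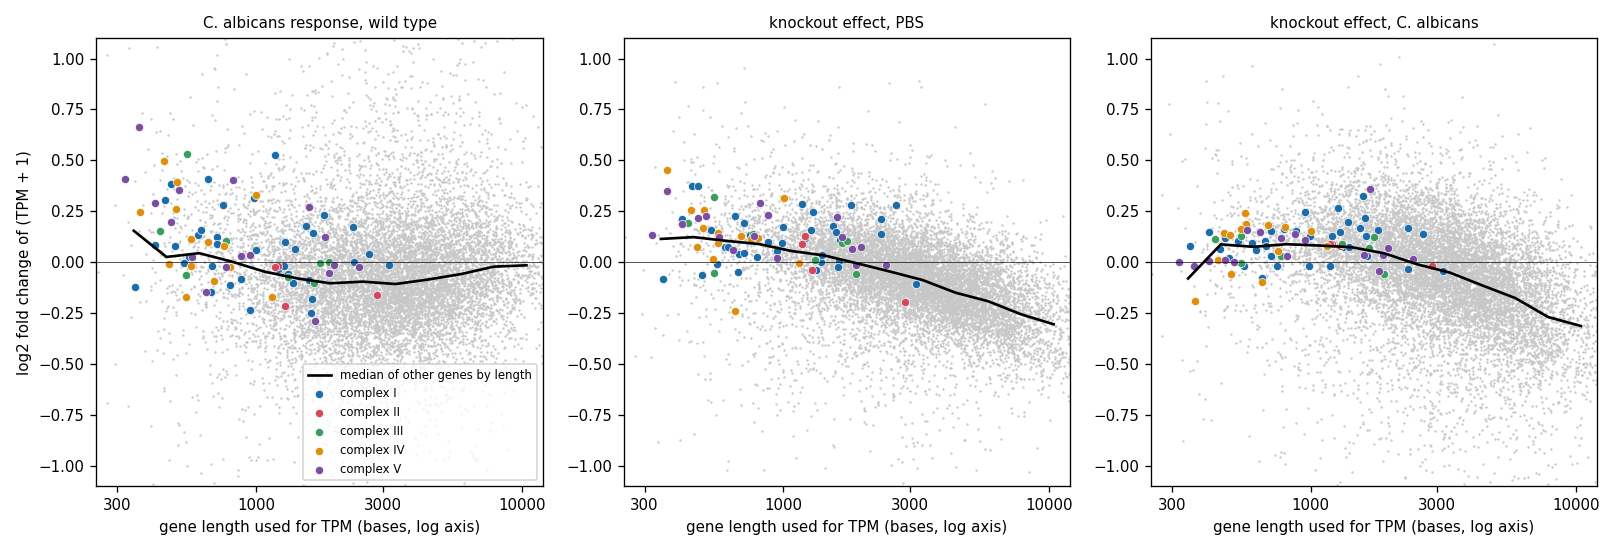
Log2 fold change of (TPM + 1) (y axis) against gene length (x axis, log scale) for 11283 tested genes in 3 comparisons; grey points are other genes, the black line is their median in length bins of at least 20 genes, and coloured points are subunits by complex. In both knockout panels the black line is above 0 for most short genes and falls below 0 towards long genes, subunits lie on both sides of it at its short end, and in the wild-type response the shortest subunits spread upwards from it.

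Within the members, 12 of the 24 rises in wild type fell among the 20 shortest members. Of the 20 members from 320 to 557 bases, 12 were higher and 1 lower (median 0.253), while 155 other genes of that length range gave 39 higher and 19 lower (median 0.039). The same 20 gave 0 higher and 6 lower in the difference of responses (median -0.156), against 12 and 16 of the 155 (median -0.018). The next 20 members, from 557 to 807 bases, gave 3 higher and 2 lower in the wild-type response (median 0.053) and 0 called in the difference of responses. GC content moved with it too: members at or below the median of 50.2% GC gave 15 higher and 4 lower in wild type, and those above it 7 and 7 (39 members each). Other short genes split the same way, with 261 higher and 170 lower of 1068 at or below that GC content and 167 and 485 of 1442 above it. The part of length and GC content in these values was not tested. Both RNA quality genes, Malat1 and Neat1, were lower in the knockout with PBS, and their sum was 613 to 666, 665 to 758, 414 to 446 and 427 to 457 TPM in wild-type PBS, wild-type C. albicans, knockout PBS and knockout C. albicans. Malat1, a nuclear RNA, moved with genotype and, in wild type, with C. albicans (523, 634, 334 and 349 TPM on average in that order). In the wild-type response 1 of the 2 RNA quality genes was called higher and 1 lower. The part of Malat1 in these results was not tested.

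Counts for assembly factors and carriers stand beside 16.1% higher and 28.3% lower of all tested genes in the wild-type response. In the knockout effect with PBS these shares were 6.14% and 26.1%. Counts this small are not read as a result about these lists. Of 17 tested complex I assembly factors, 0 were called in the knockout effect with PBS (median 0.078), and in the wild-type response 1 was higher and 4 lower. Of 21 for complex IV, 0 were higher and 2 lower in the knockout with PBS, and 3 were higher and 4 lower in the wild-type response. Surf1, needed for the haem centre of complex IV, averaged 91.4, 68.5, 77.3 and 78.2 TPM in wild-type PBS, wild-type C. albicans, knockout PBS and knockout C. albicans, and its wild-type response was -0.42. Cox17, a copper chaperone, rose by 0.41 in wild type and Pet100 by 0.62. Of 15 electron carriers and other proteins outside the rule, 3 rose and 6 fell in wild type. Cytochrome c (Cycs) rose by 0.23 there, Cyc1, the cytochrome of complex III, fell by 0.14 (lost without wild-type PBS replicate 2 or 3 or wild-type C. albicans replicate 3), and Coq9, a ubiquinone synthesis factor, fell by 0.57. Atpif1, the inhibitor of ATP synthase, was higher in the knockout by 0.33 with PBS and 0.27 with C. albicans.

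Of 15 tested regulators of the pathway, 0 rose and 5 fell in the wild-type response, 0 rose and 2 fell in the knockout with PBS, and 0 rose and 5 fell in the knockout with C. albicans. With 28.3%, 26.1% and 27.5% of all tested genes lower in these comparisons and 16.1%, 6.14% and 12.4% higher, counts this small are not read as a result about the list. Pprc1, a coactivator of the PGC-1 family, averaged 32.3, 25.8, 25.7 and 21.6 TPM in the same order of groups and was lower in all 4 pairwise comparisons. Gabpb2, a subunit of the ETS-type factor GABP, was lower in the knockout by 0.46 with PBS. Nrf1 itself, at 6.74, 5.98, 5.91 and 5.76 TPM, was not called in any comparison, nor was Tfam, the mitochondrial DNA packaging factor. Members with the NRF1-type motif gave 6 higher and 1 lower of 18 in the knockout effect with PBS, and members without it 22 and 0 of 47.

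The authors' deposited table of DESeq2 results, which matched wild-type C. albicans against wild-type PBS, called 31 members higher and 3 lower, against 18.6% higher and 14.1% lower of 13587 genes with an adjusted p. The 3 lower members in the authors' deposited table were Atp5d (-0.21), Ndufv1 (-0.17) and Sdhd (-0.13). Its highest were Atp5md (0.75), Ndufb2 (0.62), Uqcrb (0.61) and Cox7c (0.58). In the TPM fit 24 were higher and 11 lower, and Sdha, Ndufs3 and Cox8a were among the falls that the authors' deposited table did not call.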

How the data were processed

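The deposited table held TPM per gene for 12 libraries, made by the authors and summing to 1000000 in each. Per the submitters' processing notes the authors used CASAVA 1.8, cutadapt 2.6, STAR 2.7.5a, DESeq2 1.34.0 and mm10, whose roles are not spelled out; no read counter, strand setting or annotation release was found in the labels. The authors' deposited comparison table gave a mean normalised signal per gene, log2 fold changes, a Wald score and p-values. Whole reads were recovered from TPM and that signal (all 171648 nonzero values whole within 0.01 read).

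Genes reaching 1 TPM in 3 or more libraries entered the test on log2(TPM + 1) with limma 3.58.1 (R 4.3.3; variance trend, 4 group means, 12 libraries, 8 residual degrees of freedom, Benjamini-Hochberg adjustment over 11283 genes, threshold 0.05), after a check on simulated data. Fold changes are on that log2 scale, which understates changes of low genes. TPM sums to a constant over the genes listed, so each value is a share of their total. By symbol, 0 of 13 mitochondrially encoded subunits were found among the genes listed. Alternatives were another pseudocount and filters, median-ratio and upper-quartile factors, removal of length and GC trends, limma-voom on recovered reads, no variance trend, only the groups compared, a replicate block and each library left out. Gene length came from the ratio of TPM to recovered reads, scaled on 282 hairpin genes, and GC content was known for 78 of 80 members.

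Named members were, within each complex and comparison, the called members with the 2 greatest rises and the 2 greatest falls, fixed core members, the highest and lowest of each complex, and paralogs; of other lists, up to 3 genes with the smallest p per comparison. Other genes named were chosen after their values were seen. Members and lists were chosen with earlier results of these data known. For 1 member no result is reported here by name, though the counts include it.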

Additional observations from a re-analysis of the deposited data

Results flagged for a closer look

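The response to C. albicans differed between genotypes by the interaction test for 10 members (limma, adjusted p under 0.05). As knockout response minus wild-type response in log2, 7 values were below 0: Atp5md -0.3676, Uqcrb -0.3231, Cox6c -0.311, Ndufb4 -0.3053, Atp5mpl -0.262, Atp5l -0.226 and Atp5j2 -0.2055. The other 3 were above 0: Sdha 0.1781, Atp5d 0.2368 and Ndufv1 0.2392. The shares of members were 8.75% lower and 3.75% higher, near or below the 6.33% and 7.52% of all tested genes. Other short abundant genes gave 10.5% lower and 12.7% higher. Of the 10 calls 5 held in every alternative run.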

How the results depend on the processing

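Of 235 results (47 named members in each of 5 comparisons), the pseudocount of 0.1 changed 0 calls. Length and GC removal left 205 the same, with 26 weaker, 3 stronger and 1 reversed. Length removal left 205 the same, with 25 weaker and 5 stronger. With the variance trend off 211 were the same and 24 weaker. Median-ratio factors left 201 the same, with 29 stronger and 5 weaker. Values that moved are given as log2 or as counts of members. In the wild-type response, members lower numbered 6 with median-ratio factors and 4 with limma-voom, and the median was 0.110 and 0.111. Over all genes 2091 and 2104 were lower (3192 in the main fit), and the median was 0.0016 and 0.0009. In the knockout response, members higher numbered 3 without a filter, 3 with the length trend removed, and 2 with length and GC removed or the variance trend off. Over all 11283 genes, 488 were higher with the length trend removed and 561 with length and GC removed. Members lower numbered 0 with median-ratio or upper-quartile factors, limma-voom, the variance trend off or the replicate block, and 2 with only the groups compared. Over all genes 177, 268 and 255 were lower with median-ratio, upper-quartile and limma-voom. The median of members was 0.070, 0.049 and 0.073 in that order. In the knockout effect with PBS, members higher numbered 55, 52, 21 and 22 with median-ratio, upper-quartile, length, and length and GC (1577, 1293, 907 and 993 over all genes). The medians of members were 0.217, 0.195, 0.081 and 0.072, and 0.217 with limma-voom. In the knockout effect with C. albicans, members higher numbered 50, 11 and 13 with upper-quartile, length, and length and GC (2468, 1956 and 1782 over all genes). The medians of members were 0.149, 0.170, 0.041 and 0.042 with median-ratio, upper-quartile, length, and length and GC, and 0.149 with limma-voom. In the difference of responses, members lower numbered 4 without a filter or with the variance trend off. Their median was -0.041 with median-ratio and -0.042 with limma-voom, against -0.0097 and -0.0099 over all genes. Members minus other short genes came to -0.0084 and 0.050 (wild-type response), 0.040 and 0.057 (knockout effect with PBS) and -0.0012 and -0.017 (difference of responses) against genes no longer than the median member and against short abundant genes, to -0.0050 (knockout response) against the former, and to 0.062 and 0.063 in the knockout effect with PBS with length, and length and GC, removed. In the knockout effect with C. albicans the gap of 0.018 was 0.0081 against short abundant genes and 0.010 with length removed. The sign of Atp5g2 in the knockout effect with C. albicans changed with length and GC removed (-0.036, adjusted p = 0.537, limma). Counts over all genes are not set beside the fits without a filter, with the variance trend off or with only the groups compared. Member counts from those fits are not read as a result about the members. Except where the trend removed or the genes tested are the alternative itself, the cause was not tested.

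Leaving out each library in turn gave, for higher members, lower members, the median and members minus short genes, 17 to 32, 9 to 12, 0.028 to 0.064 and 0.081 to 0.102 in the wild-type response, 1 to 12, 0 to 3, 0.023 to 0.039 and 0.046 to 0.057 in the knockout response, 23 to 40, 1 to 2, 0.105 to 0.133 and 0.067 to 0.090 in the knockout effect with PBS, 20 to 32, 0 to 1, 0.078 to 0.10 and 0.007 to 0.029 in that with C. albicans, and 2 to 4, 4 to 11, -0.019 to 0.020 and -0.044 to -0.0085 in the difference of responses. Same-numbered libraries showed no common deviation (r from -0.087 to 0.087 over 18 pairs, with 5 of 12 libraries correlating best with their own number). This does not settle whether same-numbered libraries were paired, which the labels do not give. With a replicate block the counts of higher and lower members were 25 and 13, 7 and 0, 32 and 1, 30 and 0, and 3 and 7 in the order above. Counts over all genes are not set beside the replicate block or most left-out fits. A moved member count there is not read as a result about the members. Reads per member and library ran from 18 to 13088, which limits Cox7a1 most.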
